A study of Homo sapiens with 6 samples.

Results

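The nuclear-encoded subunits of the respiratory chain and ATP synthase were examined in T98G, a human glioblastoma cell line grown in medium with serum. Members were the protein-coding rows of the deposited gene table with symbols of the NDUFA, NDUFB, NDUFC, NDUFS, NDUFV, SDH, UQCR, COX4 to COX8 and ATP5 series, together with CYC1 and without the NDUFAF assembly factors. The rule gave 88 of 35750 listed genes, namely 37 for complex I, 4 for complex II, 10 for complex III, 17 for complex IV and 20 for ATP synthase, which is also called complex V. NDUFA4 and its paralog NDUFA4L2 carry complex I names but were counted with complex IV, where the NDUFA4 protein resides. The acyl carrier NDUFAB1 has no symbol of these forms and was not a member.

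The study had 2 groups of T98G libraries. In one, 3 libraries were labelled shSLC1A5, a short hairpin RNA against SLC1A5, and in the other 3 were labelled shControl, a control hairpin. SLC1A5 is a plasma membrane transporter of neutral amino acids that brings glutamine into the cell, and the series asks what its depletion does to gene expression. The labels give neither the time after hairpin delivery nor whether libraries with one label are independent cultures or clones, so a p-value here reflects only library-to-library spread, possibly technical.

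The respiratory chain passes electrons from NADH, through complex I, and from succinate, through complex II, to ubiquinone, then through complex III and cytochrome c to oxygen at complex IV. Complexes I, III and IV pump protons, and ATP synthase uses the returning protons to make ATP. Most subunits are encoded in the nucleus, a few core subunits in mitochondrial DNA, and in low oxygen cells can make the alternative subunits NDUFA4L2 and COX4I2, which are known targets of the hypoxia-inducible factors. Glutamine feeds this chain through the citric acid cycle.

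The libraries held 59327548 to 70802167 counts each, and the members took 0.746% to 0.781% of them. The targeted transcript was lower in the libraries labelled shSLC1A5, though still abundant: SLC1A5 averaged 87.9 ± 0.407 FPKM in shSLC1A5 and 95.8 ± 1.15 FPKM in shControl (SD, n = 3 each), where FPKM are fragments scaled to gene length and library size. Its log2 fold change was -0.14 (edgeR adjusted p = 0.000193), and -0.34 under the GC and length correction described below (adjusted p = 1.94e-07). The uncorrected change was near the median size over all genes tested, 0.13 regardless of sign, and 39.2% of all genes were called. All directions are given by the labels, shSLC1A5 over shControl. Of the glial markers, GFAP, S100B, SOX2 and NES averaged at most 0.185 FPKM in either group, whereas VIM was at 338.7 ± 4.87 FPKM in shSLC1A5 and 391 ± 5.72 FPKM in shControl and CD44 at 194 ± 3.37 and 209.6 ± 0.299 FPKM. SOX2 had 0 counts in each shSLC1A5 library and 8, 7 and 10 in shControl. NES had 92, 76 and 72 counts in shSLC1A5 and 32, 45 and 36 in shControl, and GFAP and S100B overlapped between groups. Marker transcripts of other cell types were present in the shSLC1A5 libraries. Summed counts of 5 B cell and plasma cell markers were 1060, 518 and 843 in shSLC1A5 and 4, 8 and 9 in shControl, with IGHM at 729, 378 and 688 counts in shSLC1A5 and 0 in each shControl library. Summed counts of 5 neutrophil markers were 3666, 30 and 40 in shSLC1A5 and 34, 36 and 25 in shControl, with MPO at 0 throughout. The listed red cell markers (3 of 4) had 773, 20 and 7 counts in shSLC1A5 and 5, 6 and 0 in shControl. All 773 were ALAS2. HBA1 and HBA2 had 0 counts in shSLC1A5 replicate 1 and 9 and 11 in shSLC1A5 replicate 2. The part of these transcripts in the results below was not tested.

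Of the 88 members, 81 averaged at least 1 FPKM across the 6 libraries and were tested. The other 7 were NDUFA4L2, COX4I2, COX6B2, COX7A1, COX7B2, ATP5MGL and the read-through ATP5MF-PTCD1. By edgeR's quasi-likelihood test with Benjamini-Hochberg adjustment over 11841 genes, 22 members were higher in shSLC1A5 and 12 lower at an adjusted p under 0.05, while 47 did not pass. These are 27.2% and 14.8% of the members tested, against a background of 20.2% of all genes tested called higher and 19.0% called lower. In either direction 42% of the members and 39.2% of all genes were called. The count of lower members fell when a library was left out. It was 4 without shControl replicate 3, 5 without shSLC1A5 replicate 2, and 7 without shControl replicate 1 or shSLC1A5 replicate 3. Calls over all genes tested fell too, from 2245 lower with all libraries to 1836 to 1923 with a library left out. Without shSLC1A5 replicate 1, which held most of the neutrophil marker and ALAS2 counts, 17 members were higher and 8 lower. Of all genes tested, 2071 were then higher and 1911 lower.

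The differences were small and went both ways. The median log2 fold change of the members was 0.0065, against -0.0057 over all genes tested, with 41 members above 0 and 40 below. The median size of the change, regardless of sign, was 0.11 for the members and 0.13 for all genes. Of the 81 tested members, 4 were called with an absolute log2 fold change over 0.3, against 1556 of all 11841 genes tested. The 4 were ATP5F1D, COX8A, NDUFS7 and NDUFV1, all higher in shSLC1A5. The FPKM values of the groups did not overlap for 27 members that were above in shSLC1A5 and 13 that were below, together 49.4% of those tested, against 49.6% of all genes. In bulk RNA, fewer cells of a type and less RNA per cell cannot be told apart.

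**Figure D1:**
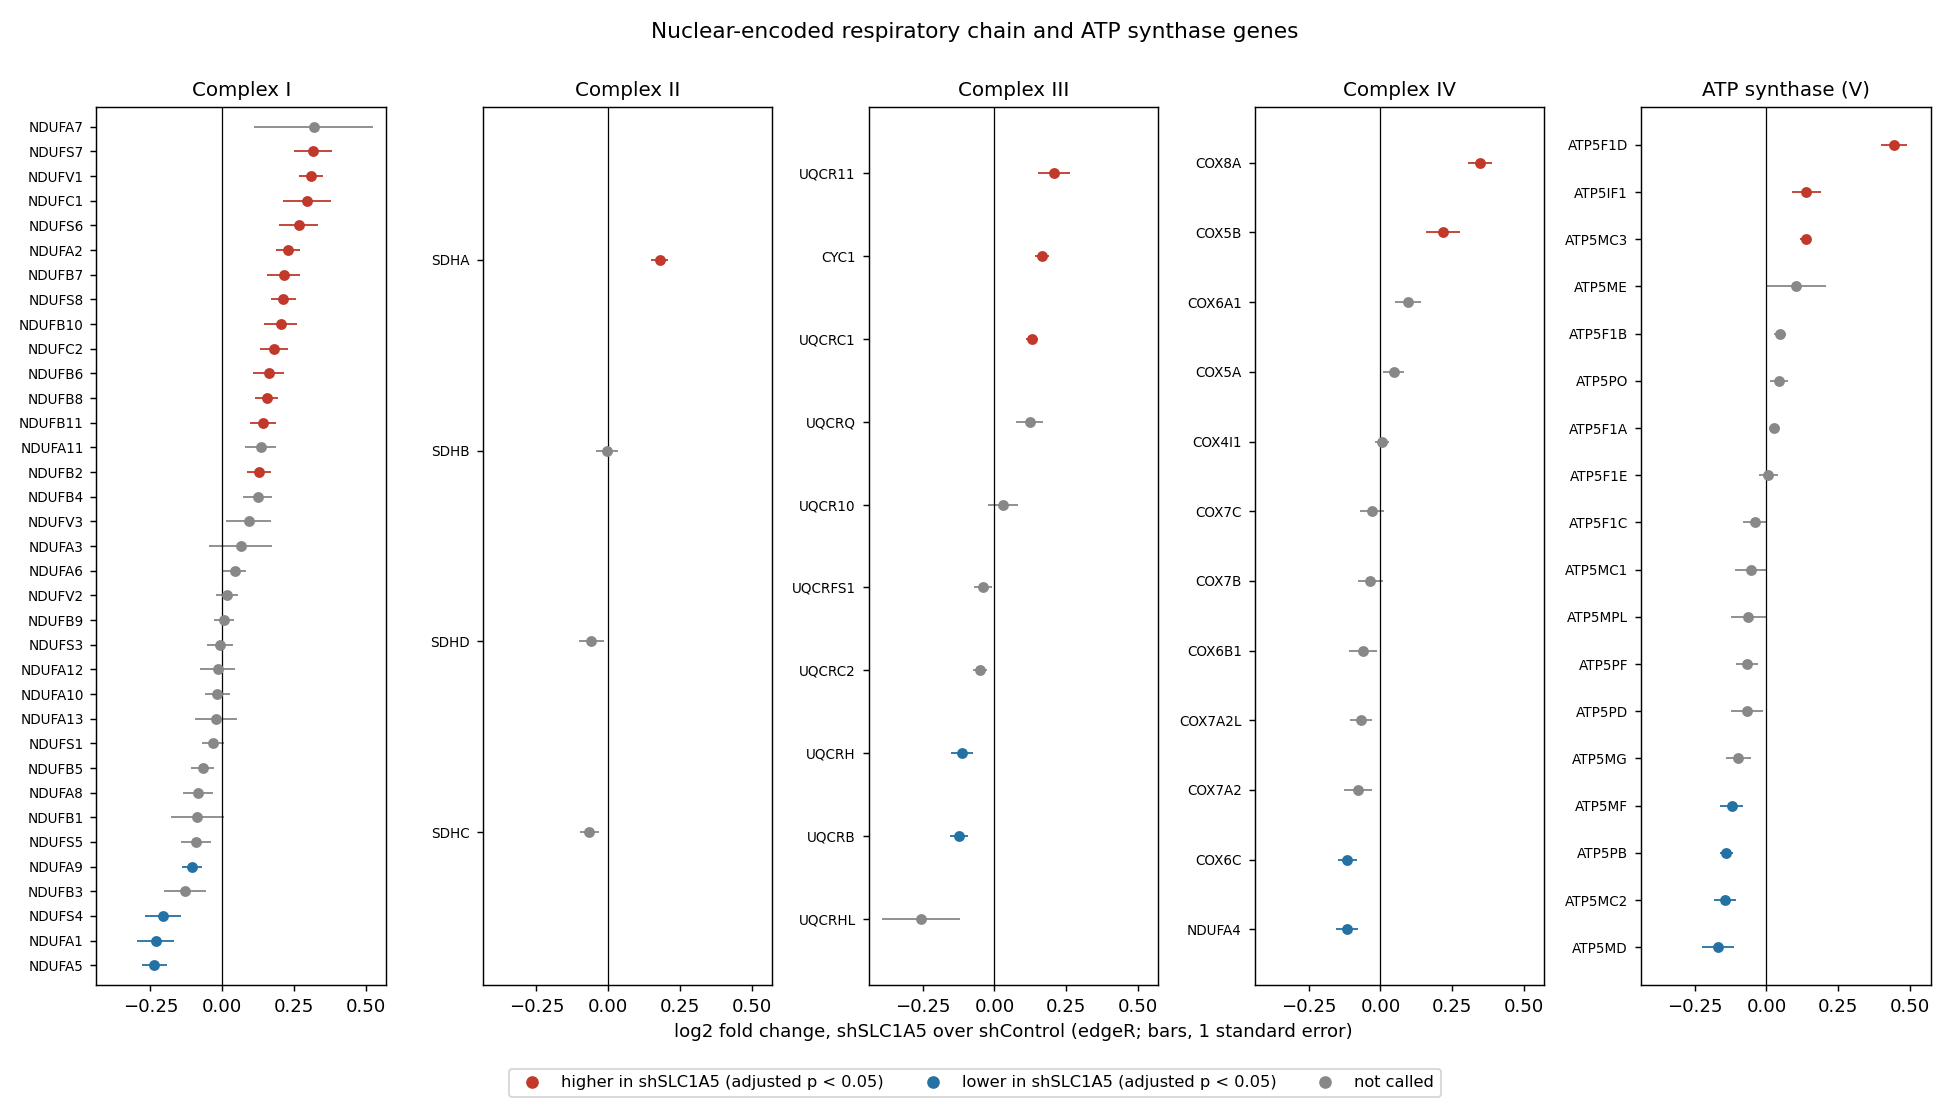
Log2 fold change of shSLC1A5 over shControl for tested members of each complex, named at the left (points, with 1 standard error), without the read-through NDUFC2-KCTD14. Red points were called higher in shSLC1A5, blue points lower, and grey points did not pass an adjusted p of 0.05; ATP5F1D at 0.44 and COX8A at 0.35 lie farthest to the right among called members.

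Of the hypoxia isoforms, NDUFA4L2 was low in both groups, under 0.6 FPKM in every library, and COX4I2 was at the limit of detection. NDUFA4L2 (ENSG00000185633, GRCh38 chr12:57234903-57240703, minus strand) is a hypoxia-induced paralog of NDUFA4 known to lower complex I activity. It had 57, 86 and 37 counts in shSLC1A5 and 92, 54 and 98 counts in shControl, or 0.247, 0.399 and 0.165 FPKM against 0.448, 0.262 and 0.508 FPKM. The groups overlapped, with shSLC1A5 replicate 2 above shControl replicate 2. When edgeR was run with its own count filter in place of the FPKM minimum, NDUFA4L2 had a log2 fold change of -0.61 (SE 0.37, edgeR adjusted p = 0.276). The SHMT2 gene on the opposite strand overlaps it and the strand setting is not given in the sources used here, so some of these reads may belong to SHMT2.

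Per length, NDUFA4L2 was a small fraction of its paralog NDUFA4. The ratio of their FPKM was 0.769%, 1.27% and 0.518% in shSLC1A5 and 1.37%, 0.783% and 1.40% in shControl. The log2 ratio differed by -0.52 (shSLC1A5 minus shControl; SD 0.65 in shSLC1A5 and 0.48 in shControl, n = 3 each; exact two-sided permutation p = 0.2, where 3 against 3 cannot go below 0.1). The difference ranged from -0.86 without shSLC1A5 replicate 2 to -0.21 without shSLC1A5 replicate 3, so single libraries set its size. COX4I2, the alternative form of the complex IV subunit COX4I1, had 0 counts in the 3 shSLC1A5 libraries and 0, 0 and 4 counts in shControl. At a floor of 3 counts per library, a count of 0 allows up to 0.0424 to 0.0448 CPM (counts scaled to library size) in the shSLC1A5 libraries, for counting error only. COX4I1 had 44.95, 46.5 and 46.25 FPKM in shSLC1A5 and 45.8, 44.0 and 46.1 FPKM in shControl (edgeR log2 fold change 0.0065, adjusted p = 0.859).

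In a list of 8 other genes with a known hypoxia response, 7 of which act in mitochondria, 6 were higher in shSLC1A5 and 0 lower (75% higher, against 20.2% of all genes tested), with a median log2 fold change of 0.41, against -0.0057 over all genes tested. BNIP3, a mitophagy receptor, had 64.0, 65.7 and 65.7 FPKM in shSLC1A5 and 38.0, 38.6 and 39.85 FPKM in shControl (log2 fold change 0.73, edgeR adjusted p = 2.52e-09). PDK1, a kinase that limits entry of pyruvate into the citric acid cycle, had 5.64, 5.999 and 5.85 FPKM in shSLC1A5 and 3.74, 4.21 and 3.92 FPKM in shControl (log2 fold change 0.55). FAM162A, which can promote cell death in hypoxia, and BNIP3L, a relative of BNIP3, were higher by 0.73 and 0.48 on the log2 scale. LONP1, a matrix protease, was higher by 0.29, and by 0.05 after the GC and length correction given below. MXI1, a nuclear repressor that opposes MYC and does not act in mitochondria, was at 0.34 and lost its call without shControl replicate 1 or shSLC1A5 replicate 1 (edgeR adjusted p up to 0.057). HIGD1A, a protein of the inner membrane, at -0.11, and ISCU, a scaffold for iron-sulfur clusters, at -0.07, were not called. With the replicate block, and without shControl replicate 2, 1 gene of the list was called lower. In the same libraries NDUFA4L2 had overlapping groups and COX4I2 had at most 4 counts.

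**Figure D2:**
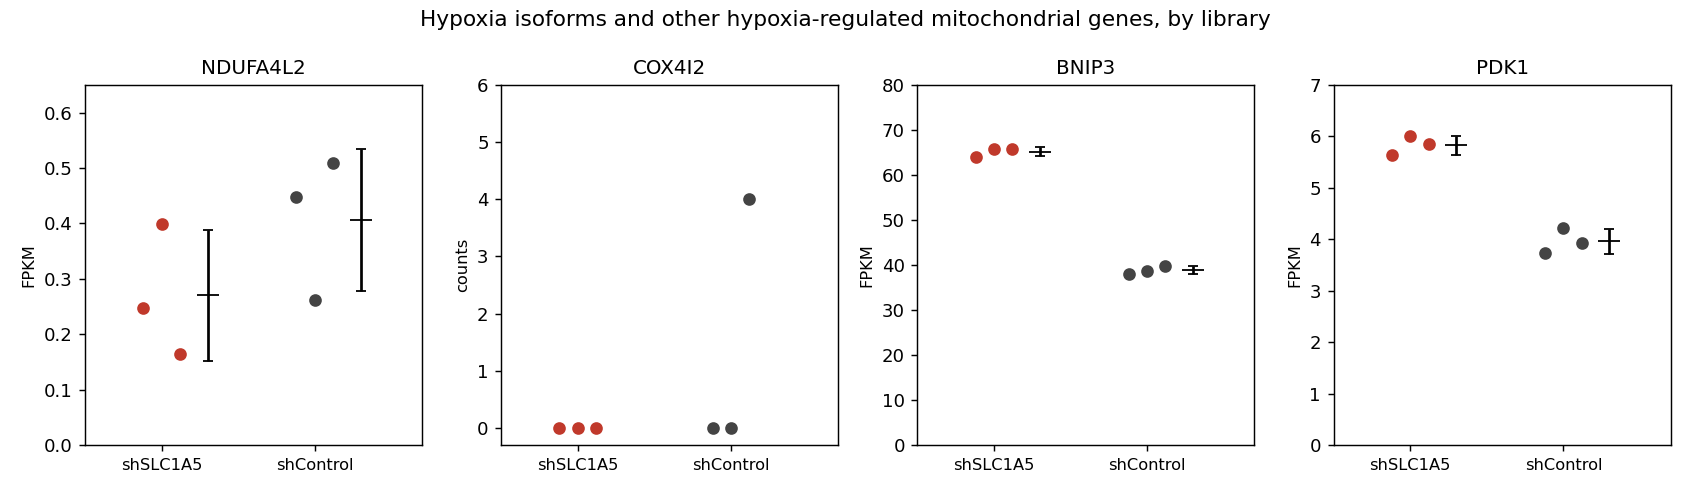
FPKM of NDUFA4L2, BNIP3 and PDK1 and counts of COX4I2 in each library (points), with mean and SD (n = 3) for the genes in FPKM. NDUFA4L2 overlaps between groups below 0.6 FPKM, COX4I2 has 4 counts in 1 library and 0 in the other 5, and BNIP3 and PDK1 are higher in all 3 shSLC1A5 libraries.

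The promoter of NDUFA4L2 is shown because it is the hypoxia isoform with reads in every library, and those of COX8A and NDUFV1 because these are members with large changes that were called under every setting run. Each runs from 250 bases before to 50 bases after the RefSeq start of transcription on GRCh38.p14, on the strand of the gene, 5′ to 3′. Capitals mark matches, on either strand, to the cores of hypoxia response elements (ACGTG and GCGTG), the NRF1 motif (GCGCANGCG), the ETS and GABP motif (CCGGAAG) and the YY1 motif (AAGATGGCG). NDUFA4L2 (chr12:57240695-57240994, minus strand) holds 2 matches, both GCGTG. COX8A (chr11:63974370-63974669, plus strand) holds 1, CCGGAAG on the opposite strand, and NDUFV1 (chr11:67606686-67606985, plus strand) holds 2, both GCGTG.
NDUFA4L2: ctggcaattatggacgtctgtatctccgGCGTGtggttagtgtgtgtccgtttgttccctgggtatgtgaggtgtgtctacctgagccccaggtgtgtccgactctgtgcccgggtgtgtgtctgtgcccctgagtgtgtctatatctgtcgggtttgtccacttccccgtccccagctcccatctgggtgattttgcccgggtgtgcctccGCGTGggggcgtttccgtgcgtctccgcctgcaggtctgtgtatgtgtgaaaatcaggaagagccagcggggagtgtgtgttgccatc
COX8A: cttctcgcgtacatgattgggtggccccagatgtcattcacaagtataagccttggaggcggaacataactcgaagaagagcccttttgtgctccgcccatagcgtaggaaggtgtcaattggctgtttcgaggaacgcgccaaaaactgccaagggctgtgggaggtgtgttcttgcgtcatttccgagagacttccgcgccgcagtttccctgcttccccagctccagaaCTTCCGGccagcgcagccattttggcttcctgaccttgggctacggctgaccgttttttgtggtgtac
NDUFV1: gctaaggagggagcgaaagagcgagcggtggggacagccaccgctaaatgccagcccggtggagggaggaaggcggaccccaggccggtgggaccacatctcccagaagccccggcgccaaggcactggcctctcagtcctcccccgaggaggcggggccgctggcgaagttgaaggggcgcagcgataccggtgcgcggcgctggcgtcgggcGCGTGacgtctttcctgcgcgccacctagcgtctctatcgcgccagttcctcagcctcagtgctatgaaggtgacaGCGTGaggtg

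A promoter of this kind was matched to 69 of the 88 members. The NRF1 motif was in 30.4% of them, against 16.4% of the promoters of tested genes and 7.52% of all promoters of the same length. The ETS and GABP motif was in 29% of member promoters, 21.7% of those of tested genes and 10.3% of all, and the YY1 motif in 13%, 4.5% and 1.75%. The hypoxia cores were about as frequent in members as in tested genes: ACGTG was in 26.1% of member promoters and 27.9% of those of tested genes, and GCGTG in 49.3% and 52.3%. Among members called higher, 5 of 18 promoters held the NRF1 motif, 8 of 18 GCGTG and 3 of 18 ACGTG, and among those called lower, 2 of 8 held the NRF1 motif, 1 of 8 GCGTG and 3 of 8 ACGTG. A match of this kind is a string in the sequence and not evidence of binding.

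Complex I oxidises NADH. Of its 37 members, 13 were higher in shSLC1A5 and 4 lower, which is 35.1% and 10.8% against 20.2% and 19.0% of all genes tested, and the median log2 fold change was 0.06, with medians of 0.04 to 0.09 under all alternatives run. Without shSLC1A5 replicate 1, 8 of the 37 were higher, against 2071 of all 11841 genes tested in that fit. In the catalytic core, 3 subunits were higher and 0 lower. NDUFV1 (ENSG00000167792, chr11:67605653-67612554), which binds NADH and the flavin, had 19.5, 20.9 and 20.4 FPKM in shSLC1A5 and 15.35, 16.15 and 17.2 FPKM in shControl. All 3 shSLC1A5 values lay above the shControl values, and the log2 fold change was 0.31 (SE 0.042, edgeR adjusted p = 0.000223).

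NDUFS7 and NDUFS8, which carry iron-sulfur clusters of the core, were also called higher. NDUFS7 had 3.63, 4.06 and 4.01 FPKM in shSLC1A5 and 3.14, 2.875 and 3.30 FPKM in shControl (log2 fold change 0.32, SE 0.067, edgeR adjusted p = 0.00351). NDUFS8 had 13.7, 13.2 and 12.5 FPKM in shSLC1A5 and 11.1, 11.3 and 11.4 FPKM in shControl (log2 fold change 0.21, edgeR adjusted p = 0.00297). For both, the groups did not overlap. The core subunits NDUFV2, NDUFS1 and NDUFS3 had log2 fold changes between -0.03 and 0.02 with overlapping groups, and were not called. With the GC and length correction, NDUFS7 and NDUFS8 were no longer called (edgeR adjusted p = 0.233 and 0.153), whereas NDUFV1 was (0.15, adjusted p = 0.0154), and NDUFV2 was called higher (0.12, adjusted p = 0.0248).

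The NDUFB subunits, accessory proteins of the distal part of the membrane arm, had 6 of 11 members higher and 0 lower, with a median log2 fold change of 0.13. That is 54.5% higher, against 20.2% of all genes tested higher and 19.0% lower. The 6 were NDUFB7 at 0.21, NDUFB10 at 0.20, NDUFB6 at 0.16, NDUFB8 at 0.15, NDUFB11 at 0.14 and NDUFB2 at 0.13 on the log2 scale. Of these, NDUFB8 was called under every setting and with every library left out (edgeR adjusted p = 0.0132; up to 0.0382 with a library left out). The other 5 each lost the call without at least 1 library, NDUFB7 only without shSLC1A5 replicate 1 (edgeR adjusted p = 0.0649) and NDUFB6 with an adjusted p of up to 0.116. With the GC and length correction, NDUFB7, NDUFB10 and NDUFB11 were not called (edgeR adjusted p = 0.542, 0.287 and 0.853). NDUFB1, NDUFB3, NDUFB4, NDUFB5 and NDUFB9 did not pass.

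The remaining accessory subunits of complex I went both ways, with 4 of 18 higher and 4 lower. Each is 22.2%, against 20.2% and 19.0% of all genes tested. NDUFC1, a short membrane-arm subunit, was at 0.29 (SE 0.083, edgeR adjusted p = 0.017), NDUFS6, which binds zinc in the peripheral arm, at 0.27, NDUFA2 at 0.23 and NDUFC2, the partner of NDUFC1, at 0.18 on the log2 scale. NDUFA5, an accessory subunit of the peripheral arm (ENSG00000128609, chr7:123536997-123557904), was lower, with 4.82, 4.66 and 4.95 FPKM in shSLC1A5 and 5.36, 5.775 and 5.72 FPKM in shControl. Its groups did not overlap (log2 fold change -0.24, SE 0.043, edgeR adjusted p = 0.00142). NDUFA1, an X-linked membrane subunit, had 60.5, 53.3 and 56.3 FPKM in shSLC1A5 and 67.7, 62.4 and 68.1 FPKM in shControl (-0.23, edgeR adjusted p = 0.0168). NDUFS4 was at -0.21 and NDUFA9 at -0.11. NDUFC1, NDUFC2, NDUFA1, NDUFS4 and NDUFA9 each lost the call with 1 or more libraries left out, with edgeR adjusted p of up to 0.0931, 0.0567, 0.0765, 0.0608 and 0.114. NDUFS4 and NDUFA9 also lost it with the GC and length correction (edgeR adjusted p = 0.3 and 0.299). The complex I members of highest level per length, NDUFS5 at 89.4 ± 4.38 FPKM in shSLC1A5 and 94.3 ± 5.18 FPKM in shControl and NDUFA6 at 66.3 ± 2.46 FPKM in shSLC1A5 and 63.7 ± 2.66 FPKM in shControl, had overlapping groups and were not called (edgeR adjusted p = 0.195 and 0.427). The 10 accessory subunits that did not pass lay between -0.09 (NDUFS5) and 0.32 (NDUFA7) on the log2 scale.

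The widest spread between libraries was that of NDUFC2-KCTD14, a read-through that shares exons with NDUFC2. It had 9.78, 4.90 and 9.675 FPKM in shSLC1A5 and 7.82, 3.77 and 2.16 FPKM in shControl, with a coefficient of variation of 34.3% in shSLC1A5 and 63.6% in shControl. The median coefficient over tested members was 3.71% in shSLC1A5 and 3.64% in shControl. Its log2 fold change of 0.81 did not pass (edgeR adjusted p = 0.135) and was 1.44 without shControl replicate 1 (adjusted p = 0.0111). NDUFA7, which overlaps RPS28, was at 0.32 (SE 0.21, edgeR adjusted p = 0.252). How reads were divided among these genes is not given in the sources used here.

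Complex II, succinate dehydrogenase, has 4 subunits and all are nuclear. SDHA, the flavoprotein that oxidises succinate (ENSG00000073578, chr5:218241-257082), had 19.4, 20.2 and 19.7 FPKM in shSLC1A5 and 17.9, 17.2 and 16.8 FPKM in shControl. The groups did not overlap (log2 fold change 0.18, SE 0.029, edgeR adjusted p = 0.000652). Its iron-sulfur partner SDHB averaged 35.2 ± 1.01 FPKM in shSLC1A5 and 35.0 ± 1.13 FPKM in shControl. The membrane anchors SDHC, at 23.5 ± 0.495 and 24.4 ± 0.482 FPKM, and SDHD, at 26.3 ± 0.642 and 27.1 ± 1.57 FPKM, did not pass either (edgeR adjusted p = 0.142 and 0.321). The 3 listed SDHA pseudogenes hold 16.5% as many counts as SDHA, so its count depends on how reads shared with them were assigned.

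**Figure D3:**
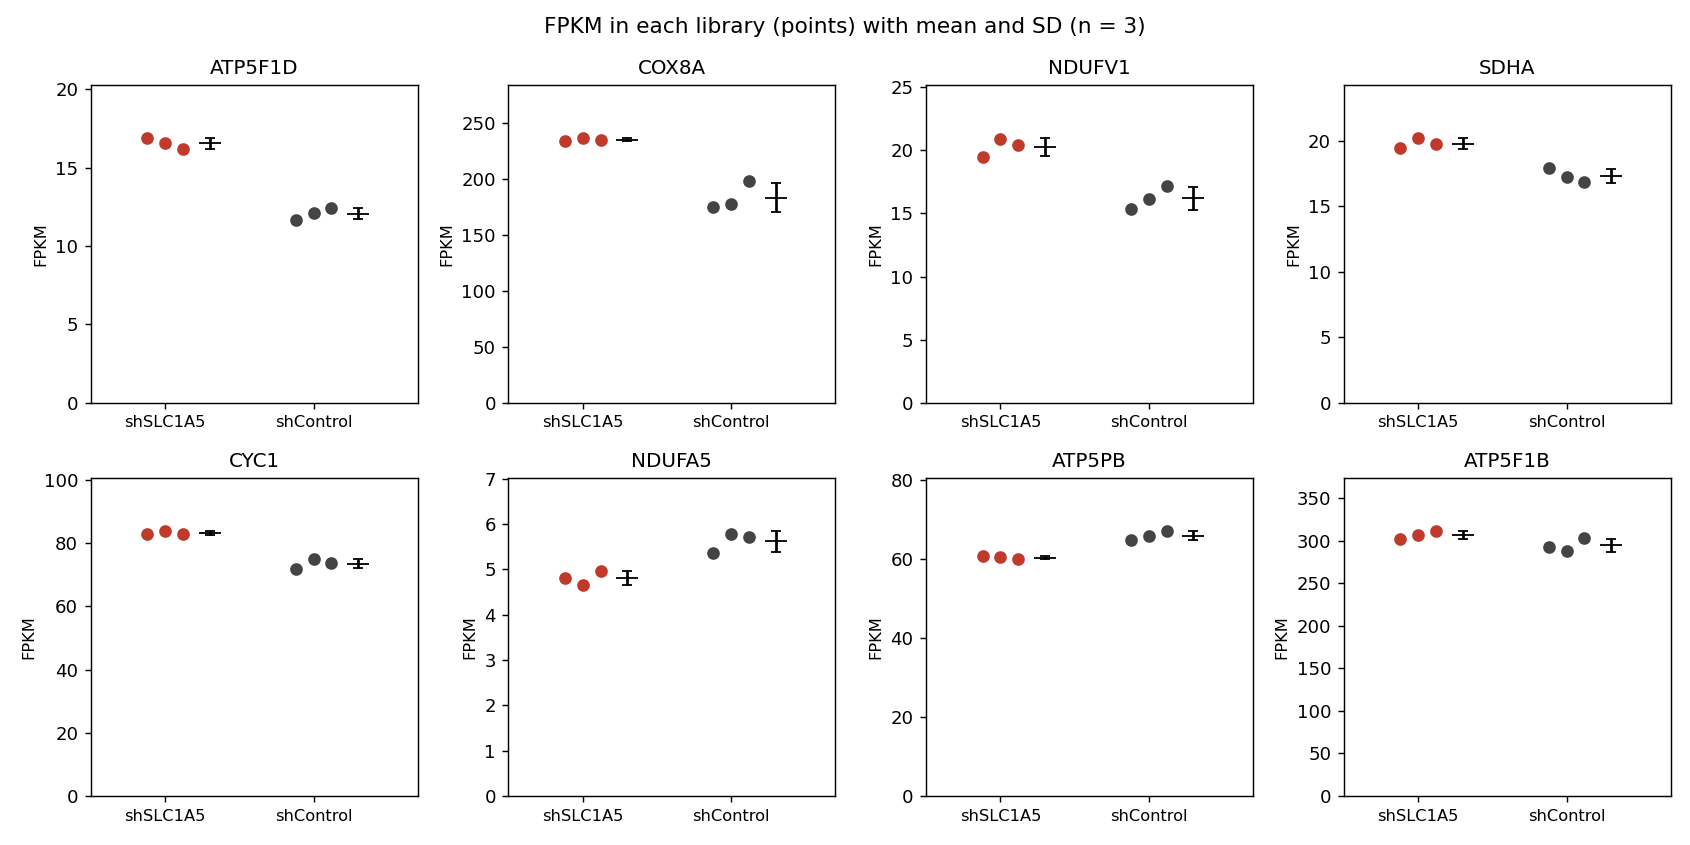
FPKM of 8 members in each library (points) with mean and SD (n = 3), shSLC1A5 in red and shControl in grey. ATP5F1D, COX8A, NDUFV1, SDHA and CYC1 are higher in all 3 shSLC1A5 libraries, NDUFA5 and ATP5PB are lower in all 3, and the groups overlap for ATP5F1B.

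Complex III, which passes electrons from ubiquinol to cytochrome c, had 3 members higher, 2 lower and 5 not called of 10, and a median log2 fold change of -0.0050. The shares were 30% higher and 20% lower, against 20.2% and 19.0% of all genes tested. CYC1, cytochrome c1, had 82.85, 83.8 and 82.8 FPKM in shSLC1A5 and 71.9, 74.85 and 73.75 FPKM in shControl (log2 fold change 0.17, SE 0.023, edgeR adjusted p = 0.000276). UQCRC1, a core protein, had 59.2, 61.7 and 60.9 FPKM in shSLC1A5 and 54.1, 55.03 and 55.4 FPKM in shControl (0.13, SE 0.022, edgeR adjusted p = 0.000892). Neither overlapped between groups, and both are GC-rich, with 64.5% and 59.6% GC. With the GC and length correction both directions turned: CYC1 was at -0.10 and called lower (edgeR adjusted p = 0.0115), and UQCRC1 was at -0.02 and not called (adjusted p = 0.517).

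Among the small subunits of complex III, UQCR11 was higher by 0.21 (SE 0.057, edgeR adjusted p = 0.0141), with 16.6, 17.1 and 17.85 FPKM in shSLC1A5 and 13.5, 14.99 and 15.7 FPKM in shControl. UQCRB, which contributes to the ubiquinone site, was at -0.12 and UQCRH, the hinge protein that contacts cytochrome c1, at -0.11. UQCRH was the complex III member of highest level per length, with 129, 124 and 132 FPKM in shSLC1A5 and 143.5, 130.3 and 139 FPKM in shControl, and its groups overlapped. UQCRB and UQCRH lost their calls with the correction (edgeR adjusted p = 0.22 and 0.128) and with 1 or more libraries left out (up to 0.0589 and 0.143). UQCRHL, a near copy of UQCRH, had 2.67 ± 0.325 FPKM in shSLC1A5 and 3.16 ± 0.284 FPKM in shControl and was not called, and reads of the pair may be shared. The Rieske protein UQCRFS1 and the second core protein UQCRC2 had overlapping groups, at -0.04 and -0.05 on the log2 scale, and UQCRQ, at 0.12, and UQCR10, at 0.03, were not called either.

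Complex IV, cytochrome c oxidase, had 2 members higher and 2 lower of 12 tested, and a median log2 fold change of -0.03. The shares were 16.7% each, against 20.2% and 19.0% of all genes tested. COX8A, the smallest nuclear subunit (ENSG00000176340, chr11:63974620-63976543), had 233.9, 236.5 and 234.7 FPKM in shSLC1A5 and 174, 178 and 198 FPKM in shControl. The groups did not overlap (log2 fold change 0.35, SE 0.043, edgeR adjusted p = 0.000113), and 0.22 remained after the GC and length correction (adjusted p = 0.0019). COX5B, a zinc-binding subunit of the matrix side, had 30.7, 32.6 and 35.0 FPKM in shSLC1A5 and 25.8, 28.5 and 29.4 FPKM in shControl (0.22, edgeR adjusted p = 0.012). COX6C and NDUFA4 were both at -0.12. NDUFA4 had 32.1, 31.35 and 31.8 FPKM in shSLC1A5 and 32.6, 33.4 and 36.4 FPKM in shControl, and only the third shControl library stood well above the rest. COX6C and NDUFA4 lost their calls with the correction (edgeR adjusted p = 0.789 and 0.689) and without shControl replicate 3 (0.0757 and 0.132) or shSLC1A5 replicate 2 (0.0687 and 0.118), and NDUFA4 also without shControl replicate 2, shSLC1A5 replicate 1 or shSLC1A5 replicate 3 (0.0502, 0.0519 and 0.0882).

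COX8A carried the difference in the summed FPKM of complex IV, in which genes with short models weigh more per count. The summed FPKM of its members was 665, 662.5 and 676 in shSLC1A5 and 601, 604 and 633 in shControl. Without COX8A it was 431, 426 and 441 in shSLC1A5 and 426, 426 and 436 in shControl, and the groups overlapped. The subunits with tissue forms were expressed as the general form. COX6A1 was at 62.8 ± 1.71 FPKM in shSLC1A5 and 58.3 ± 2.99 FPKM in shControl, COX6B1 at 48.6 ± 2.94 and 50.2 ± 2.07, COX7A2 at 27.4 ± 1.75 and 28.7 ± 0.298, and COX7B at 25.2 ± 1.21 and 25.5 ± 0.883 FPKM, with 0 of the 4 called. COX6A1 was called with the GC and length correction (0.20, edgeR adjusted p = 0.00244), and COX7A2 without shSLC1A5 replicate 1 (-0.13, adjusted p = 0.0288). COX5A (63.2 ± 0.784 FPKM in shSLC1A5 and 60.6 ± 2.21 FPKM in shControl) at 0.05, COX7C at -0.03 and COX7A2L at -0.07 on the log2 scale were not called. The heart and muscle form COX7A1 had 7, 0 and 5 counts in shSLC1A5 and 0, 0 and 1 in shControl. The testis forms COX6B2, with 13, 8 and 3 counts in shSLC1A5 and 0, 4 and 5 in shControl, and COX7B2, with 4, 0 and 0 against 0 in each shControl library, were also near 0. Summed counts of 5 striated muscle markers were 70, 27 and 56 in shSLC1A5 and 57, 55 and 67 in shControl, with MYH7 at 0 throughout, and the 1 listed testis marker, DDX4, had 11, 0 and 2 counts in shSLC1A5 and 0 in each shControl library.

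ATP synthase had 3 members higher and 4 lower of 18 tested, and a median log2 fold change of -0.05. The shares were 16.7% higher and 22.2% lower, against 20.2% and 19.0% of all genes tested. ATP5F1D, the delta subunit of the central stalk (ENSG00000099624, chr19:1241746-1244825), had the largest change among called members. It had 16.9, 16.6 and 16.2 FPKM in shSLC1A5 and 11.7, 12.1 and 12.4 FPKM in shControl, with no overlap. The log2 fold change was 0.44 (SE 0.046, edgeR adjusted p = 3.16e-05), and 0.20 after the GC and length correction (adjusted p = 0.00667). The other subunits of the F1 head and central stalk, ATP5F1A, ATP5F1B, ATP5F1C and ATP5F1E, were not called. ATP5F1B, the catalytic beta subunit, had the highest level per length of all members, with 303, 307 and 311 FPKM in shSLC1A5 and 293, 288 and 303 FPKM in shControl (0.05, edgeR adjusted p = 0.0968), and the groups overlapped. It was called with the correction (0.07, edgeR adjusted p = 0.0133) and with a minimum of 5 FPKM (0.06, adjusted p = 0.022). Leaving out shControl replicate 3 also gave a call (0.07, edgeR adjusted p = 0.0209).

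The c ring, through which protons pass, is built from a single mature protein encoded by 3 genes, and these moved apart. ATP5MC3 had 48.02, 48.4 and 49.25 FPKM in shSLC1A5 and 43.9, 43.7 and 43.6 FPKM in shControl, with no overlap (log2 fold change 0.14, SE 0.019, edgeR adjusted p = 0.000228). ATP5MC2 had 24.1, 26.1 and 25.2 FPKM in shSLC1A5 and 27.2, 26.55 and 28.8 FPKM in shControl (-0.14, SE 0.038, edgeR adjusted p = 0.013). ATP5MC1 was not called (-0.05). The 3 genes summed to 94.2, 96.8 and 94.4 FPKM in shSLC1A5 and 91.85, 92.4 and 95.85 FPKM in shControl, which overlap. ATP5MC2 lost its call with the correction (edgeR adjusted p = 0.0985) and without shControl replicate 3 (0.0615) or shSLC1A5 replicate 1 (0.0512), whereas ATP5MC3 kept its call throughout.

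In the peripheral stalk, ATP5PB, subunit b (ENSG00000116459, chr1:111448864-111462773), was lower, with 60.7, 60.5 and 59.9 FPKM in shSLC1A5 and 64.9, 65.8 and 67.1 FPKM in shControl. The groups did not overlap (log2 fold change -0.14, SE 0.021, edgeR adjusted p = 0.000497), and -0.06 remained after the correction (adjusted p = 0.0461). ATP5PD, ATP5PF and ATP5PO, the other stalk subunits, were not called. Of 5 accessory membrane subunits, which help form dimers of the enzyme, ATP5MD was at -0.17 and ATP5MF, subunit f, at -0.12, and 0 were higher. The shares called lower were 25% in the stalk and 40% in this set, against 19.0% of all genes tested. Over all genes 20.2% were higher, and sets of 4 and 5 genes are too small to give a direction. ATP5MF was at -0.23 after the correction and ATP5MD was no longer called (edgeR adjusted p = 0.206), and both lost their calls when some libraries were left out (edgeR adjusted p up to 0.104 and 0.12). ATP5IF1, the inhibitor that stops the enzyme from hydrolysing ATP, was at 0.14 (SE 0.05, edgeR adjusted p = 0.0482; up to 0.152 with a library left out). 2 members were below the minimum. ATP5MGL had 0 counts in each shSLC1A5 library and 4, 0 and 0 in shControl. ATP5MF-PTCD1, a read-through that shares exons with ATP5MF, had 14, 19 and 21 counts in shSLC1A5 and 7, 11 and 3 in shControl (log2 fold change 1.195 with edgeR's own count filter, edgeR adjusted p = 0.252).

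The fold changes of the members followed GC content, as did those of all genes. Over the 81 tested members, the Spearman correlation of the log2 fold change with the GC content of the longest transcript was 0.52, and over 11800 tested genes it was 0.49; these points share the same 6 libraries. The median GC content was 53.8% in the 22 higher members, 43.3% in the 12 lower members and 46.5% in the rest. Of the 19 members with at least 55% GC, 10 were higher and 1 lower, and of the 29 below 45% GC, 3 were higher and 7 lower. All tested genes had a like split, with 1620 higher and 128 lower of 3265 at 55% GC or more, and 240 higher and 1338 lower of 4505 below 45%. When each library was corrected for its dependence on GC content and length, the correlation over the members was -0.01. Then 22 of the 81 members were higher and 6 lower. Of all 11841 genes tested, 1452 (12.3%) were higher and 1641 (13.9%) lower.

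The genes called with and without this correction were partly different. Of the 34 called members, 19 kept their call and direction (15 higher and 4 lower), 14 lost the call (6 higher and 8 lower) and CYC1 was called in the other direction. A further 8 were called only with the correction, 7 higher (ATP5F1A, ATP5F1B, ATP5PO, COX6A1, NDUFB4, NDUFV2 and UQCRQ) and 1 lower (NDUFA13). The median of the members was 0.04 with the correction. For complexes II, IV and V the median turned positive, at 0.05, 0.05 and 0.03, and for complex III it was 0.05 with a minimum of 5 FPKM, so that no direction can be given for these complexes as a whole. Whether the GC dependence is technical was not tested.

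**Figure D4:**
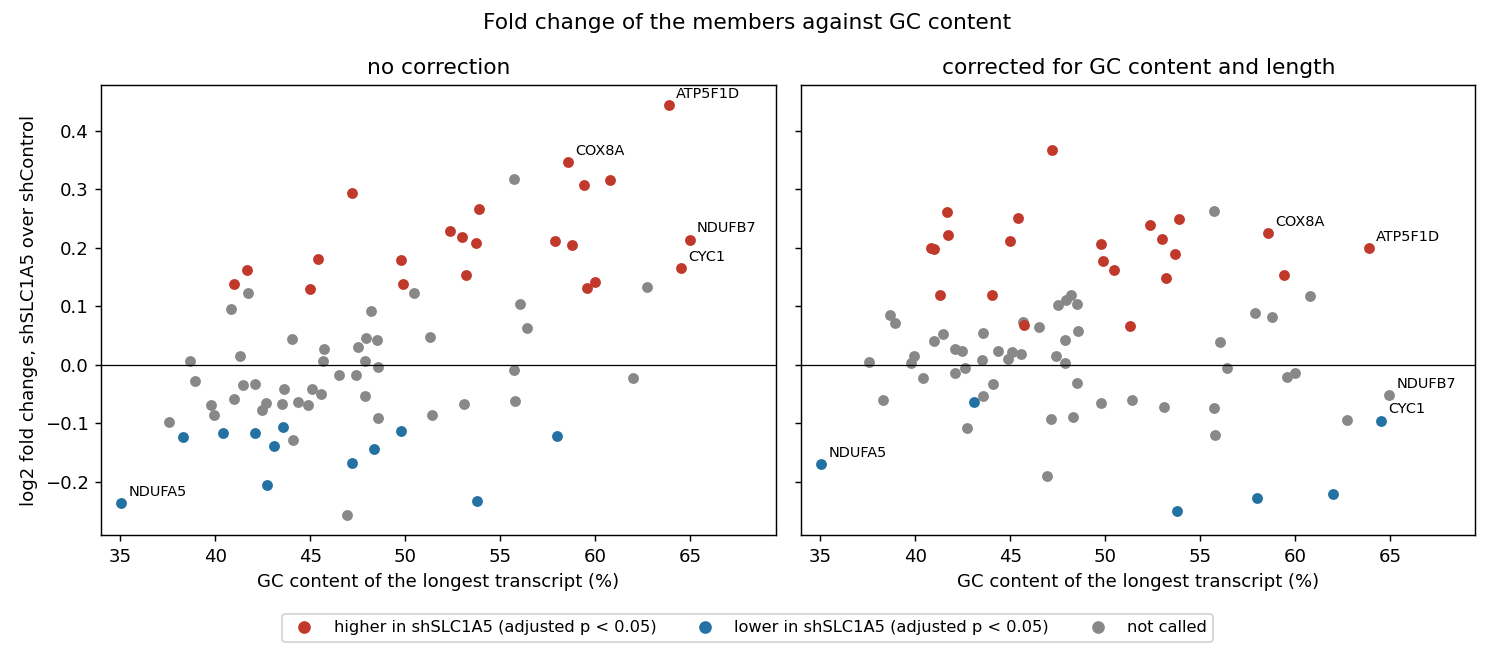
Log2 fold change of tested members, without the read-through NDUFC2-KCTD14, against the GC content of the longest transcript, without (left) and with (right) the GC and length correction. Red points were called higher in shSLC1A5, blue points lower and grey points not called in the fit shown; CYC1 is at 0.17 on the left and at -0.10 on the right.

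Some of the 34 calls depended neither on a setting nor on a library. Over all alternatives and all left-out libraries, 9 members kept their call: NDUFV1, NDUFA2, NDUFB8, SDHA, COX8A, ATP5F1D and ATP5MC3 were higher in shSLC1A5 and NDUFA5 and ATP5PB were lower. With each library left out in turn, 16 kept it, 14 higher and 2 lower. The like counts over all genes tested were not made, so whether these are few or many is not known. Overlapping genes add an uncertainty for 9 of the 34 called members, which overlap a gene holding at least 10% as many counts, among them NDUFA2 (with IK and TMCO6), NDUFB8 (with HIF1AN) and ATP5PB (with WDR77).

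Most subunits encoded in mitochondrial DNA were lower before correction. Of the 13 transcripts, 11 were lower in shSLC1A5 and 0 higher (84.6% lower, against 19.0% of all genes tested). Their median log2 fold change was -0.10, against -0.0057 over all genes tested. MT-ND1, a complex I subunit, averaged 1152 ± 12.8 FPKM in shSLC1A5 and 1328 ± 10.0 FPKM in shControl (-0.22, edgeR adjusted p = 2.01e-06), and MT-ND6 was at -0.20. Both stayed lower with quantile normalization (-0.23 and -0.16) and with the GC and length correction (-0.15 and -0.11). With that correction the median of the 13 was -0.01, with 2 higher and 3 lower, against 12.3% of all genes higher and 13.9% lower. Cytochrome c, encoded by the nuclear gene CYCS, had 52.2 ± 0.965 FPKM in shSLC1A5 and 57.8 ± 3.46 FPKM in shControl (-0.16, edgeR adjusted p = 0.00476; 0.0903 with the correction), and NDUFAB1 was not called (0.04).

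Assembly factors, which help build the complexes, were counted by complex; over all genes tested, 7200 of 11841 were not called, 20.2% were higher and 19.0% lower. For complex I, 1 of 16 was higher and 3 were lower, among them NDUFAF2, a chaperone of late assembly, at -0.26. For complex IV, 3 of 22 were higher and 0 lower, with SCO2, a copper chaperone, at 3.26 ± 0.441 FPKM in shSLC1A5 and 2.15 ± 0.158 FPKM in shControl (0.58, edgeR adjusted p = 0.0131). For ATP synthase, 2 of 4 were higher, FMC1 at 0.45 and TMEM70 at 0.25, for complex II SDHAF1 was at 0.43 and SDHAF2 at -0.18, and for complex III 1 of 6 was lower, LYRM7 at -0.11. Of 8 MICOS and cristae genes, 3 were lower and 0 higher, among them APOOL at -0.18 and IMMT at -0.12. With the GC and length correction, calls were lost for SCO2 (edgeR adjusted p = 0.167), SDHAF1 (0.272), SDHAF2 (0.1), LYRM7 (0.354), APOOL (0.166) and IMMT (0.0668), and kept for NDUFAF2, FMC1 and TMEM70. Without 1 library or another, SCO2 (up to 0.0605 by edgeR, without shSLC1A5 replicate 2), SDHAF1 (0.0741), SDHAF2 (0.0526), LYRM7 (0.0987), APOOL (0.115), IMMT (0.0503) and TMEM70 (0.0914) also lost them.

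Among 12 regulators of respiratory genes, 11 were tested, and 5 were higher and 1 lower. This is 45.5% and 9.09%, against 20.2% and 19.0% of all genes tested. POLRMT, the mitochondrial RNA polymerase, averaged 7.99 ± 0.207 FPKM in shSLC1A5 and 5.54 ± 0.405 FPKM in shControl (0.52, edgeR adjusted p = 3.52e-05; 0.19 after the GC and length correction). ESRRA, a nuclear receptor that works with PGC-1 coactivators, was at 0.33 (0.10 after the correction), the coactivator PPARGC1B at 0.24 and NRF1 at 0.18. GABPB1, part of the GABP factor, was at -0.15. PPARGC1B, NRF1 and GABPB1 lost their calls with some libraries left out (edgeR adjusted p up to 0.0758, 0.165 and 0.109), and ESRRA and GABPB1 with the GC and length correction (0.269 and 0.245). PPARGC1A, the best-known coactivator of these genes, was at 0.453 ± 0.0734 FPKM in shSLC1A5 and 0.528 ± 0.0882 FPKM in shControl and was not tested.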

How the data were processed

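Poly(A)-selected RNA of 6 T98G libraries was sequenced from both ends (150 bases each) by Illumina NovaSeq, per the labels' protocols. The tools named in the submitters' processing notes are fastp, HISAT2 and StringTie, without versions; genome build, strand setting and treatment of multiply matching reads were not stated in the labels or headers. The authors deposited one table that, per the file headers, holds a count and an FPKM value per gene and library. The counts were taken as raw. IDs of 34674 of the 35750 genes are in GENCODE 29 and overlap the same gene on GRCh38 in 99.9% of cases.

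Counts of 11841 genes averaging 1 FPKM or more were fitted with edgeR 4.0.16 in R 4.3.3 (TMM, group alone, quasi-likelihood F test, Benjamini-Hochberg adjustment, threshold 0.05). The standard error is the log2 fold change divided by the square root of F. The common biological coefficient of variation was 0.0982. For the GC and length correction, loess (span 0.3) on the longest GENCODE transcript gave offsets for edgeR. Alternatives were DESeq2 1.42.0, limma 3.58.1 on log2(FPKM + 1) and log2(FPKM + 0.1), other scalings and filters, a replicate block and omission of each library. Replicates of a group differed by 9.82 to 16.7 times counting noise (chi-square per gene), so each pair was counted as separate libraries.

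The members and gene lists were chosen with earlier results of these data known. Named were the hypoxia and tissue isoforms, all of complex II, per complex the 4 called members of largest change and the 2 of highest FPKM, and members with shared reads; others shown with values (the complex I core, the NDUFB subunits, CYC1, UQCRC1 and members called under all alternatives) were chosen after their values were seen. Levels per length use the authors' gene model, and members with long models read low. The model length implied by counts and FPKM exceeds the longest transcript for 76 of 81 tested members. Implied lengths run high, at 1072 for the 956 bases of MT-ND1, so 76 may be too many. One member is counted in the totals but is not reported here. Promoter sequences are those of RefSeq. The NRF1 motif searched was shortened by its last base after the shares with the longer form had been seen, for reasons of format and not of the result; the shorter form matches every promoter that the longer one does, and more. Steps were tested on simulated data.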

Additional observations from a re-analysis of the deposited data

How the results depend on the processing

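Of 542 values of named members under other settings, 479 kept their side of the threshold, 55 lost a call and 6 gained one. The other 2 were called members that turned, CYC1 (-0.10) and UQCRC1 (-0.021), both under the GC and length correction. Members not called in the main fit could change sign among the 479. SDHB (-0.0044 to 0.057) and SDHD (-0.059 to 0.040) did so under that correction. There, 6 members were lower (complex III 1, IV 0, V 2), 6 of complex V were higher, and the medians were 0.039 over all members, 0.049 for complex II, 0.047 for IV and 0.031 for V. Of all 11841 genes tested, 1452 were higher and 1641 lower under that correction, against 2396 and 2245 in the main fit. Limma, with either 1 or 0.1 added to FPKM, gave 6 lower members (complex I 2, III 0, IV 1). Of all genes tested, 1744 and 1743 were lower in these 2 fits. With no filter on low values, which fits 34207 genes, 12 members were higher (I 6, IV 1) and 4 lower (I 1, III 1, IV 1, V 1). In that fit 1889 of all genes were higher and 1577 lower. A minimum of 5 FPKM gave 1 lower member and a median of 0.048 in complex III, with 1576 of 6749 genes lower. Quantile normalization gave a median of 0.036 in complex I and 1 lower member each in III and IV, with 2248 of all genes tested lower. Counting NDUFA4 with complex I left 1 lower in IV. The cause of these shifts was not tested.

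Leaving out each library gave 17 to 20 higher and 4 to 9 lower members. Complex I had 8 to 12 higher and 2 to 3 lower, III and IV had 0 to 2 lower and V had 1 to 4 lower. Medians were 0.039 to 0.094 in complex I and -0.039 to -0.021 in V. Over all genes tested, 2027 to 2158 were then higher and 1836 to 1923 lower, against 2396 and 2245 with all libraries. Same-numbered libraries had correlations of deviations of -0.15, 0.04 and -0.03, and libraries of unlike number in opposite groups -0.12 to 0.12. With 3 libraries per group, these values cannot exclude that equal numbers mark a pair. With the replicate block, 22 members were higher and 13 lower, against 2311 and 2159 of all genes tested. The planned ratio of COX4I2 to COX4I1 could not be tested because 5 of 6 libraries had 0 counts. At 0 to 4 counts per library, no difference was detectable at this depth for COX4I2, COX7B2 and ATP5MGL.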
